A study of Mus musculus with 12 samples.

Results

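The BCL2 family of apoptosis regulators was followed through 12 RNA libraries of mouse optic nerve. Its 10 members were taken by gene symbol from the deposited count table, 10 of 35275 genes listed. They are 4 anti-apoptotic genes (Bcl2l1, Bcl2, Bcl2l2 and Mcl1), 2 effectors (Bax and Bak1) and 4 BH3-only genes (Bbc3, Bcl2l11, Bad and Bid). All 10 passed the filter on low counts.

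Proteins of this family decide whether the outer membrane of the mitochondrion is opened. The effectors form pores in it, the anti-apoptotic members bind and restrain them, and the BH3-only members sense stress and either block the anti-apoptotic members or activate the effectors. Once pores form, cytochrome c leaves the mitochondrion and caspases are activated. The survival of oligodendrocytes, the myelin-forming cells of the optic nerve, and of the axons' parent neurons is known to depend on this balance.

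All libraries came from mice of a neurofibromatosis type 1 (NF1) model, controls included, and no wild-type nerve was among them. They were treated with phosphate-buffered saline (PBS, 6 libraries), with carboplatin (3 libraries), which links DNA strands through platinum, or with selumetinib (3 libraries), which inhibits the MEK kinases. Sources used here did not give the allele, any Cre driver, the dose, the schedule, or the age or sex of the mice. Whether a group held several animals is not stated in the labels, so each p-value reflects only how far these samples spread, and part of that spread may be technical.

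Totals ran from 21793052 to 33375754 counts per library, and 18344 genes were tested. The labels call the material nerve cells, and the 10 markers of mature oligodendrocytes took 5.17 to 8.45% of all counts in 9 libraries. They took 2.14% in PBS 1, 3.14% in selumetinib 1 and 2.23% in selumetinib 2, which therefore stand apart. In PBS 1 the 8 skeletal muscle markers took 4.13% of counts, against 0.168% or less elsewhere. The 7 neuron markers took 0.147% and 0.175% in selumetinib 1 and 2, and 0.0394% or less elsewhere. The 8 retina markers took 0.0854% and 0.151% in carboplatin 1 and 3, and 0.0156% or less elsewhere, and the 8 pigment epithelium markers took 0.113% in carboplatin 2 and 0.0155% or less elsewhere. Y-linked genes had no counts in PBS 1, carboplatin 1 and the 3 selumetinib libraries. In bulk tissue, fewer cells of a type and less RNA per cell cannot be told apart. Nf1 itself was read in every group and, with no wild type, checks no label.

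The starts of Bcl2l1 and Bbc3, which rose after carboplatin, and of Bax, which was apart from PBS in every carboplatin library, are shown first, because transcription factors known to act on this family bind near such starts. RefSeq gave 16 promoters for the 10 members (GRCm38.p6, the build of the files). The 250 bases before the start are printed 5′ to 3′ on the gene's strand for Bcl2l1 (chr2:152831729-152831978, minus strand), the second listed start of Bbc3 (chr7:16310011-16310260, plus strand) and Bax (chr7:45466899-45467148, minus strand). Capitals mark matches to the motifs searched.
Bcl2l1: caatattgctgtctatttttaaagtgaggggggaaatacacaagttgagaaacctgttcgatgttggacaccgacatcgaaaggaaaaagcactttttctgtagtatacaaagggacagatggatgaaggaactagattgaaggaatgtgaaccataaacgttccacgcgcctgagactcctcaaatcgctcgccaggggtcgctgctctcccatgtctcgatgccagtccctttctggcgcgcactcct
Bbc3: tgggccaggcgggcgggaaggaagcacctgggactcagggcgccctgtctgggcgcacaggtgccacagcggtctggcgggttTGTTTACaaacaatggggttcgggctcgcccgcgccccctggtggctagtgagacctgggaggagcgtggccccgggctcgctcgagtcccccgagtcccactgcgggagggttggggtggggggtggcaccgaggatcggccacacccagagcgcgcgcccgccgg
Bax: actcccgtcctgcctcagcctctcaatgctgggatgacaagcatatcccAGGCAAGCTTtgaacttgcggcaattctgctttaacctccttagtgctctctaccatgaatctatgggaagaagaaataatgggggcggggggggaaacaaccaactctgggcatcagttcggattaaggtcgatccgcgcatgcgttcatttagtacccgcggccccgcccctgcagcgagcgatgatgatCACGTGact

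The motifs, searched on both strands of the 300 bases around each start, were the glucocorticoid receptor half-site AGAACA, the p53 half-site, the FOXO site GTAAACA, the AP-1 site TGANTCA, the E2F site TTTCGCGC, the STAT site TTCNNNGAA, the CRE site TGACGTCA and the E-box CACGTG. None of them was in the printed Bcl2l1 stretch, that of its first listed start. The second listed start of Bcl2l1 had an E2F site at position -145, a motif found in 0.323% of all promoters, and the bases before that start lie within annotated exons. The first listed start of Bbc3 had none of the motifs, and the last had an E-box at position -64 and no FOXO site. The Bbc3 stretch held a FOXO site on the minus strand at position -167 from the start, a motif found in 3.65% of all 32851 promoters. The Bax stretch held a p53 half-site at position -201, found in 8.36% of all promoters, and an E-box at position -9, found in 7.15%. A FOXO site was also found at position -227 from the first start of Bcl2l11. A match describes letters only and shows no binding.

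The first comparison set the carboplatin libraries against PBS. An anti-apoptotic and a pro-apoptotic member rose, 2.97-fold and 2.73-fold: Bcl2l1, which encodes BCL-XL, and Bbc3, which encodes the BH3-only protein PUMA, a known target of p53. No member fell. These were 2 of 10 members called by edgeR at an adjusted p under 0.05, against 2.09% of all genes tested. DESeq2 called 2 members, against 7.62% of all genes, and limma voom with quality weights 5, against 29.6%. At an unadjusted p under 0.05 edgeR had 3 members, against 16.5% of all genes. The groups did not overlap for 3 members, these and Bax, against 12.2% of all genes. The median log2 fold change of the 10 members was 0.31, and that of all genes tested was -0.11. Shares of other cell types moved with the same group. In all 3 carboplatin libraries the markers of border macrophages and monocytes (0.00166 to 0.00462% of counts, 0.0101 to 0.0170% in PBS), meningeal fibroblasts (0.0368 to 0.0909%, 0.0959 to 0.171%) and red blood cells (0.00124 to 0.00808%, 0.0246 to 0.819%) lay below every PBS library. Those of pigment epithelium (0.00733 to 0.113%, 0.00260 to 0.00629%) lay above. No marker of these 4 lists was at 0 over either group, and their part in the members' changes was not tested.

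Bcl2l1 (ENSMUSG00000007659, mm10 chromosome 2, 152780668 to 152831728, minus strand) stood at 86.1 to 143 CPM (counts scaled to a common library size, median 124) in the 6 PBS libraries. It stood at 386, 330.3 and 366 CPM in carboplatin 1, 2 and 3. Every carboplatin library was above every PBS library. The mean went from 122 ± 19.7 (SD, n = 6) to 361 ± 28.3 CPM (SD, n = 3), a log2 fold change of 1.57 ± 0.16 (SE, edgeR adjusted p = 0.00137). It ranked 11 by p among all genes tested. The counts do not separate its isoforms, of which the long one protects cells and the short one does not.

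Bbc3 (ENSMUSG00000002083, chromosome 7, 16308393 to 16318205, plus strand) stood at 3.49 to 6.76 CPM (median 5.58) in PBS. It stood at 14.5, 14.1 and 15.7 CPM in carboplatin 1, 2 and 3, from 345 to 478 counts each. The groups did not overlap here either. Its log2 fold change was 1.45 ± 0.20 (SE, edgeR adjusted p = 0.00453). Both rises kept their call when any single library was left out, at log2 1.47 to 1.64 for Bcl2l1 and 1.35 to 1.53 for Bbc3. With PBS 1 to 3 as the only controls the edgeR adjusted p was 0.0952 for each, at log2 1.62 for Bcl2l1 and 1.40 for Bbc3. That setting called 7 of all 18110 genes tested. Leaving out carboplatin 1 and 3, the libraries with retina counts, left carboplatin 2 alone in its group. The log2 fold changes were then 1.45 for Bcl2l1 and 1.39 for Bbc3.

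**Figure D1:**
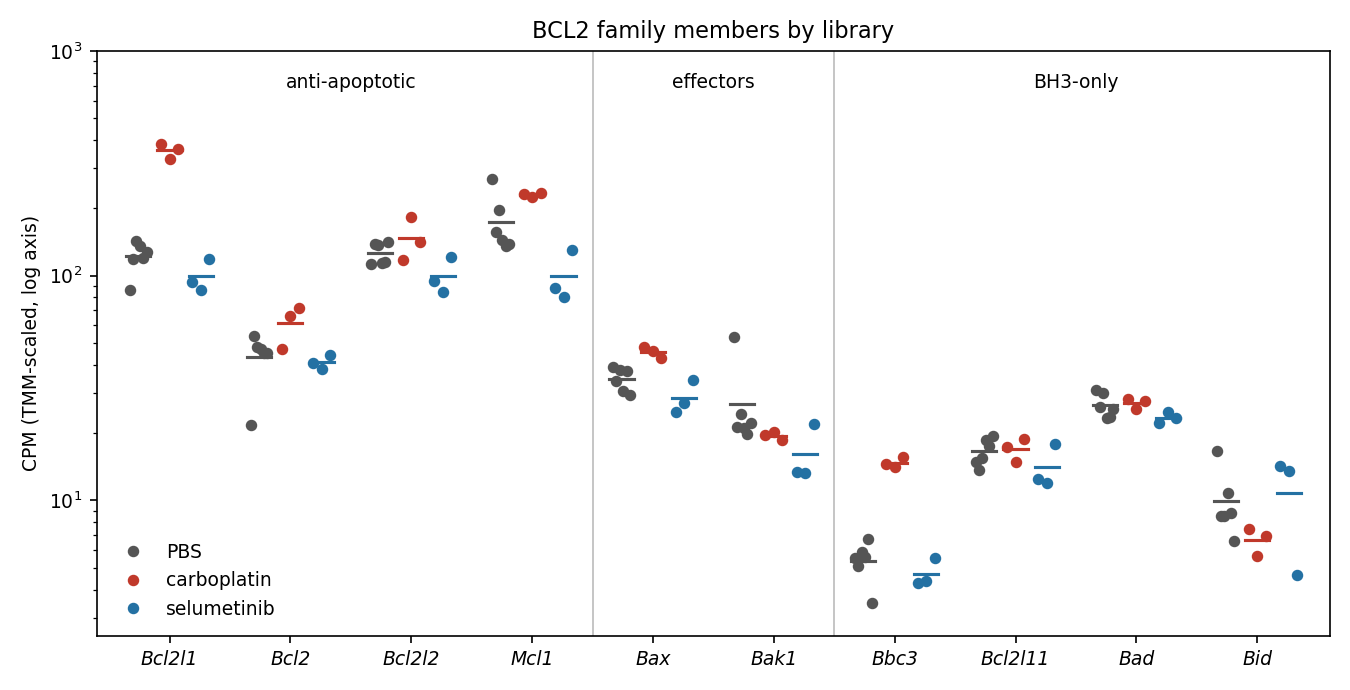
TMM-scaled CPM (log axis) of the 10 members in each of the 12 libraries, with points for libraries and bars for group means. The 3 carboplatin libraries lie between 330.3 and 386 CPM for Bcl2l1 and between 14.1 and 15.7 for Bbc3, above every other library.

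Bax (chromosome 7, 45461697 to 45466898, minus strand), the effector that moves to mitochondria on activation, stood at 29.6 to 39.1 CPM (median 35.7) in PBS. It stood at 48.2, 46.2 and 42.9 CPM in the carboplatin libraries, all above PBS. Its log2 fold change was 0.40 ± 0.13 (SE, edgeR adjusted p = 0.167) and did not pass. Without PBS 1, selumetinib 1 and selumetinib 2, the libraries low in oligodendrocyte markers, it passed at log2 0.41 (adjusted p = 0.0299).

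Bak1 (chromosome 17, 27019810 to 27029009, minus strand), the effector held at the mitochondrial membrane, stood at 53.1 CPM in PBS 1 and at 19.7 to 24.3 in the other PBS libraries. It stood at 19.6, 20.1 and 18.5 CPM after carboplatin, around the low end of PBS 2 to 6. The log2 fold change was -0.47 (95% interval -1.21 to 0.27).

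Mcl1 (chromosome 3, 95658788 to 95663176, plus strand), a short-lived anti-apoptotic protein, stood at 135 to 268 CPM (median 151) in PBS, highest in PBS 1. It stood at 231, 223 and 233 CPM after carboplatin. PBS 1 was above all 3, so the groups overlapped. The log2 fold change was 0.40 ± 0.23 (SE, edgeR adjusted p = 0.42). It passed without PBS 1, selumetinib 1 and selumetinib 2, at log2 0.55 (adjusted p = 0.0187), and with PBS 4 to 6 as the only controls, at 0.72 (0.0308). Mcl1 averaged 207 CPM in PBS 1 to 3 and 139 in PBS 4 to 6 (edgeR adjusted p = 0.273).

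Bcl2 (chromosome 1, 106538178 to 106714274, minus strand), the founding anti-apoptotic member, stood at 21.7 CPM in PBS 1 and at 45.2 to 53.7 in the other PBS libraries. It stood at 47.1, 66.3 and 71.7 CPM after carboplatin, overlapping PBS. The log2 fold change was 0.51 (95% interval -0.03 to 1.04, edgeR adjusted p = 0.315). It passed with the Y-linked covariate, at 0.68 (adjusted p = 0.0194), and with limma voom, at 0.41 (0.0287). PBS 1 and carboplatin 1, each the lowest of its group for Bcl2, were the libraries of these groups without Y-linked counts. Bcl2l2 (chromosome 14, 54883377 to 54888234, plus strand), which encodes the related protein BCL-W, stood at 113 to 141 CPM in PBS and at 117, 183 and 141 after carboplatin, a log2 fold change of 0.22 (95% interval -0.16 to 0.60).

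Among the other BH3-only members, Bcl2l11 (chromosome 2, 128126038 to 128162547, plus strand), which encodes BIM, had a log2 fold change of 0.03 (95% interval -0.36 to 0.43). Bad (chromosome 19, 6941861 to 6951899, plus strand), whose protein is held inactive by phosphorylation, had one of 0.04 (95% interval -0.24 to 0.32). These intervals exclude the sizes seen for Bcl2l1 and Bbc3. Bid (chromosome 6, 120891930 to 120916853, minus strand), which links death receptors to mitochondria, stood at 7.47, 5.67 and 6.94 CPM after carboplatin and 6.61 to 16.6 in PBS, with a log2 fold change of -0.58 (95% interval -1.41 to 0.26).

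**Figure D2:**
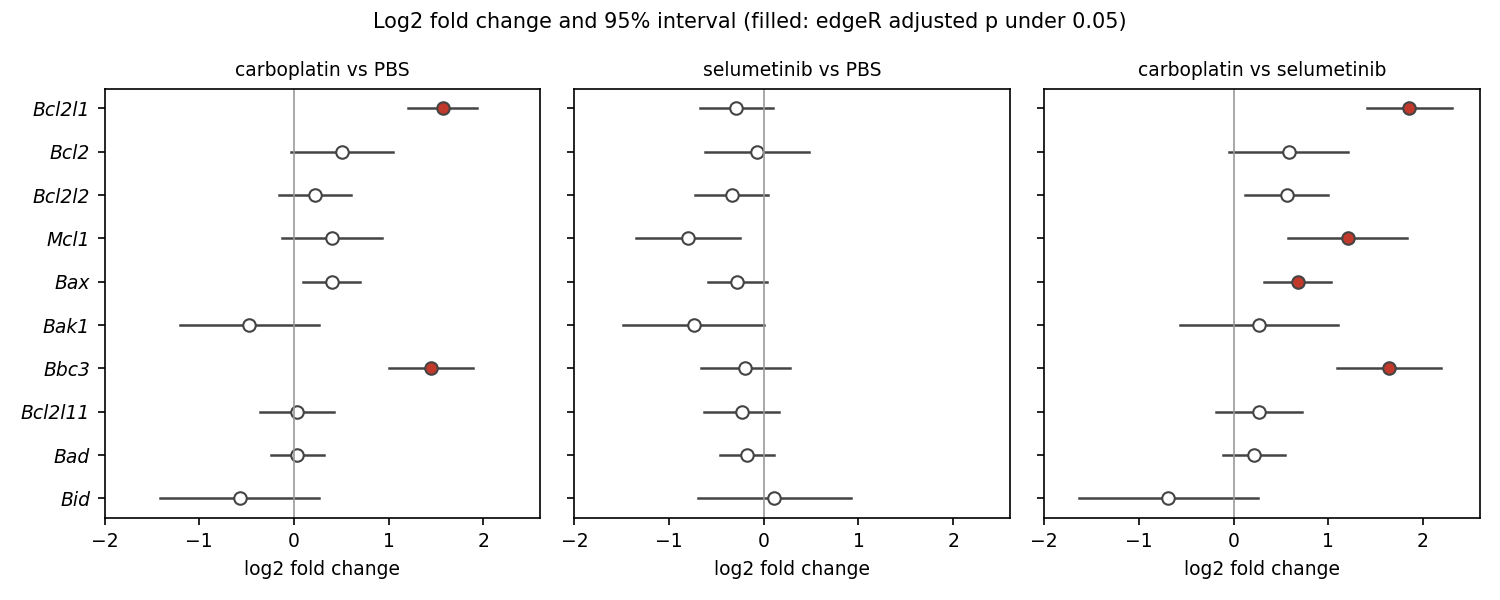
Log2 fold change (horizontal axis) of each member in the 3 comparisons, with approximate 95% intervals and filled points where the edgeR adjusted p was under 0.05. Bcl2l1 and Bbc3 are filled against PBS, and Mcl1 and Bax also against selumetinib.

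Reads cannot be told apart between overlapping genes without the strand setting, which was not given in the sources used here. Exons on the opposite strand overlap those of Bcl2 (D630008O14Rik), Bak1 (Ggnbp1), Bad (Gpr137) and Bid (Bcl2l13). None of these 4 partners was called in any comparison. Bcl2l2 shares exons with Gm20521, listed at 0 in all libraries, and Bax shares 192 exonic bases with Gm45808. Bcl2l1, Bbc3, Mcl1 and Bcl2l11 had no exonic overlap.

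The second comparison set the selumetinib libraries against PBS. No member was called by edgeR (0 of 10), nor was any of the 18344 genes, 0%. At an unadjusted p under 0.05, 2 members, Mcl1 and Bak1, were lower, against 24.0% of all genes in either direction. DESeq2 called 1 member, against 12.4% of all genes, and limma voom with quality weights 7, against 55.3%. The groups did not overlap for 1 member, Mcl1, against 5.93% of all genes. The median log2 fold change of the members was -0.26, and that of all genes was -0.09.

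Mcl1 stood at 88.2, 80.6 and 129.5 CPM in selumetinib 1, 2 and 3, all below the 135 CPM of the lowest PBS library. The log2 fold change was -0.80 ± 0.24 (SE, edgeR adjusted p = 0.107). It passed with DESeq2 (adjusted p = 0.0245) and, in edgeR, without selumetinib 3 (adjusted p = 0.0199). The 2 lowest values came from the libraries with low oligodendrocyte and raised neuron marker shares. Without PBS 1, selumetinib 1 and selumetinib 2 the log2 fold change was -0.26, where selumetinib 3 alone stands for its group and is assumed to vary like the others. The part of that mixture in the result was not tested.

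Other members moved with the same libraries. Bak1 stood at 13.4 and 13.2 CPM in selumetinib 1 and 2 and at 21.8 in selumetinib 3, within the range of PBS. Bid stood at 14.2 and 13.5 CPM in selumetinib 1 and 2 and at 4.66 in selumetinib 3, the lowest of all 12 libraries. PBS 1, the other library low in oligodendrocyte markers and the only one rich in muscle markers, was the highest of all for Mcl1, Bak1 and Bid and the lowest for Bcl2 and Bcl2l1. Bcl2l1 stood at 94.1, 86.5 and 118 CPM after selumetinib (log2 -0.29, 95% interval -0.67 to 0.09). Bbc3 stood at 4.28, 4.37 and 5.52 CPM (log2 -0.19, 95% interval -0.66 to 0.28).

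**Figure D3:**
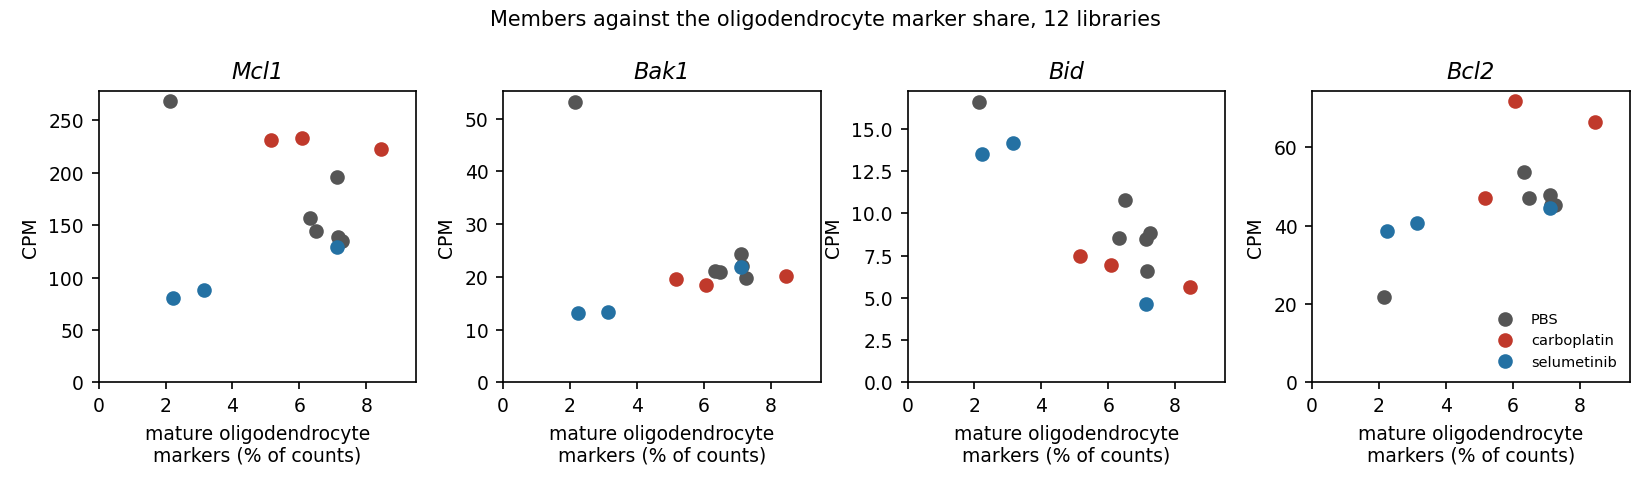
CPM of 4 members (vertical axes) against the share of counts in mature oligodendrocyte markers (horizontal axis, %), with 1 point per library. The 3 libraries at 2.14 to 3.14% hold the highest and the lowest Mcl1 and Bak1 values.

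Carboplatin and selumetinib were also set against each other. Bcl2l1, Bbc3, Mcl1 and Bax were higher after carboplatin, 4 of 10 members called by edgeR, against 14.0% of all genes. EdgeR called none lower. Without selumetinib 3 it called Bid lower (log2 -1.07, adjusted p = 0.0343), as did limma voom (-0.96, 0.00147). DESeq2 called 5 members, against 24.6% of all genes, and limma voom 10, against 58.6%. At an unadjusted p under 0.05 edgeR had 5, against 31.5%. The groups did not overlap for 6 members, the same 4 with Bcl2 and Bad, against 41.7% of all genes. The median of the members was 0.57 and that of all genes -0.01.

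Bcl2l1 differed by log2 1.86 ± 0.20 (SE, edgeR adjusted p = 0.00231) and Bbc3 by 1.64 ± 0.24 (adjusted p = 0.00704). Both kept their call without any single library. Mcl1 differed by log2 1.21 ± 0.28 (adjusted p = 0.0226) and Bax by 0.68 ± 0.16 (adjusted p = 0.0233). Both lost the call without carboplatin 1, 2 or 3 or selumetinib 1 or 2, at an adjusted p of 0.0642 to 0.0972 for Mcl1 and 0.0697 to 0.103 for Bax. Without PBS 1, selumetinib 1 and selumetinib 2, which leaves 1 selumetinib library, Mcl1 differed by 0.81, Bax by 0.41 and Bbc3 by 1.40. With carboplatin against PBS 1 to 3 and selumetinib against PBS 4 to 6, Bcl2l1 was the only member called. Of all 18344 genes tested, 22 were called in that setting. Mcl1 then differed by 0.64 (edgeR adjusted p = 0.28), Bax by 0.50 (0.235) and Bbc3 by 1.58 (0.111).

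Per kb of exon, the order of the members could be compared within a library. In PBS, Mcl1 led with 50.7 ± 15.1 CPM per kb (SD, n = 6), followed by Bcl2l2 at 28.3 ± 3.06, Bcl2l1 at 26.5 ± 4.30 and Bax at 22.1 ± 2.53. The next were Bak1 at 11.2 ± 5.38, Bad at 10.3 ± 1.27 and Bcl2 at 4.74 ± 1.21. Bid at 2.81 ± 0.99, Bbc3 at 2.54 ± 0.51 and Bcl2l11 at 2.06 ± 0.28 were lowest. Bcl2l2 and Bcl2l1, Bak1 and Bad, Bid and Bbc3, and Bbc3 and Bcl2l11 did not differ beyond their SD. Bad lay above Bak1 in each of PBS 2 to 6, and only PBS 1 (Bak1 22.1, Bad 12.1) put the Bak1 mean ahead.

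After carboplatin Bcl2l1 led at 78.7 ± 6.17 CPM per kb (SD, n = 3) with Mcl1 at 67.1 ± 1.60. Bcl2l1 lay above Mcl1 per kb in 3 of 3 carboplatin libraries, 0 of 6 PBS and 0 of 3 selumetinib libraries. Its share of the summed anti-apoptotic level per kb was 24.4 ± 4.90% in PBS, 42.4 ± 3.55% after carboplatin and 28.1 ± 1.03% after selumetinib. Bbc3 took 14.3 ± 2.87% of the BH3-only sum in PBS, 32.2 ± 1.18% after carboplatin and 13.9 ± 2.81% after selumetinib. Bad remained the largest BH3-only share, at 58.3 ± 4.27%, 49.3 ± 0.93% and 56.6 ± 3.17%. Among effectors Bax took 67.5 ± 7.54%, 78.3 ± 0.67% and 73.4 ± 2.62%.

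**Figure D4:**
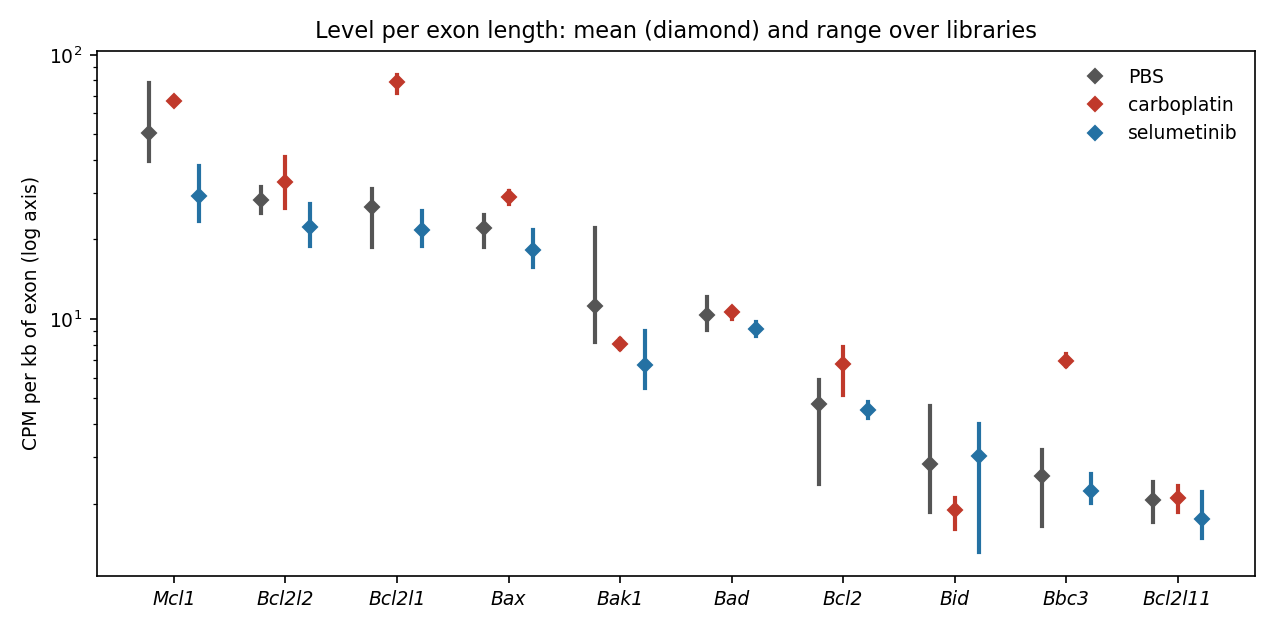
CPM per kb of exon (log axis) of each member, in the order of the PBS means, with diamonds for group means and lines for the range over libraries. Bcl2l1 stands behind Mcl1 and Bcl2l2 in PBS at 26.5 and leads after carboplatin at 78.7.

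The mean log2 CPM of the anti-apoptotic members less that of the pro-apoptotic members described the balance in each library. It was 2.03 in PBS 1 and 2.56 to 2.87 in the other PBS libraries. It was 2.96, 3.30 and 3.18 in carboplatin 1, 2 and 3, above every PBS library. It was 2.49, 2.34 and 2.75 in the selumetinib libraries, inside the PBS range, with selumetinib 1 and 2 below every PBS library but PBS 1. The group means were 2.63 ± 0.31 (SD, n = 6), 3.15 ± 0.18 (n = 3) and 2.52 ± 0.21 (n = 3). With Bcl2l1 and Bbc3 left out, an alternative chosen after the data were seen, they were 2.22 ± 0.30, 2.70 ± 0.26 and 2.11 ± 0.24. Carboplatin and PBS then overlapped, with carboplatin 1 (2.417) below PBS 2 (2.498). Carboplatin 2 (2.929) and carboplatin 3 (2.763) stayed above every PBS library, and PBS 1 was the lowest of its group (1.654). Levels of RNA do not give the balance of the proteins, several of which are set by degradation or phosphorylation.

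The difference of Bcl2l1 from Bax was 1.79 ± 0.37 in PBS, 2.98 ± 0.13 after carboplatin and 1.80 ± 0.12 after selumetinib, on the log2 CPM scale.

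**Figure D5:**
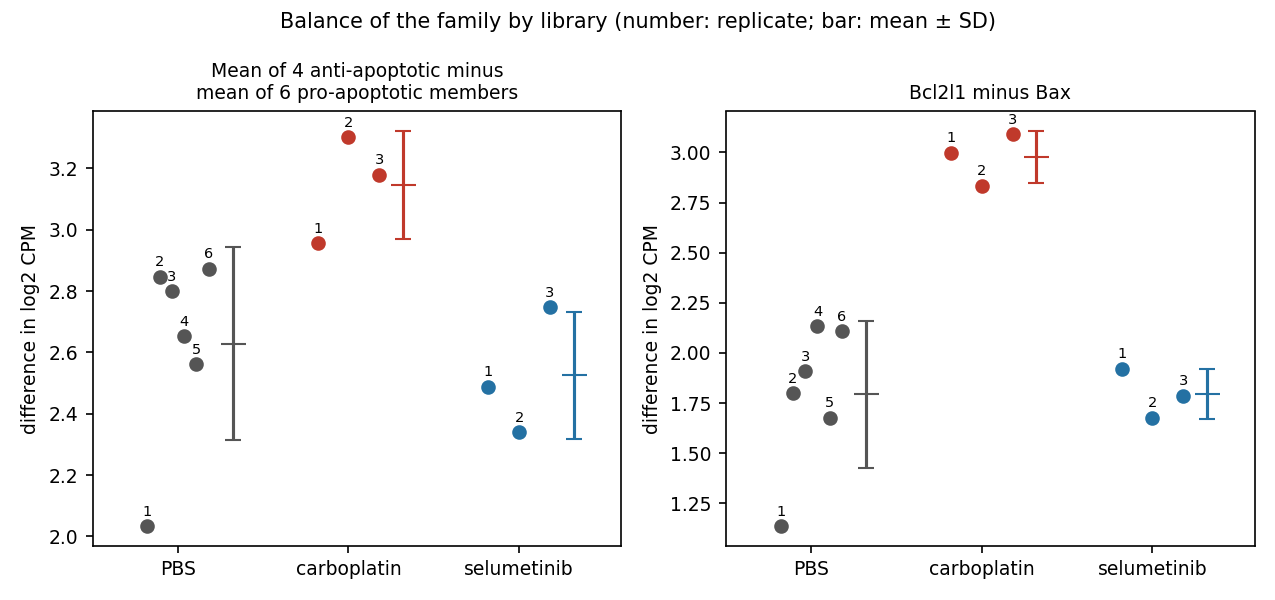
Balance of the family in each library as a difference in log2 CPM: anti-apoptotic less pro-apoptotic members (left) and Bcl2l1 less Bax (right), with numbers for replicates and bars for mean ± SD. The carboplatin libraries lie at 2.96 to 3.30 on the left, above all PBS libraries, and PBS 1 is lowest at 2.03.

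The genes whose profile over the 12 libraries lay nearest to a member's were found by the root mean square (RMS) difference of log2 CPM, each profile centred on its PBS mean, over 13458 genes. For Bcl2l1 the nearest were Smox (0.12), Gatsl3 (0.18), Dclre1b (0.19), Ptpn11 (0.19) and Sys1 (0.23), where the median of all genes was 0.94. Smox, which encodes spermine oxidase, stood at 86.5, 250.1 and 72.8 CPM in PBS, carboplatin and selumetinib. For Bbc3 they were Smox (0.21), Sys1 (0.21), Gatsl3 (0.23), Cyp2d22 (0.24) and Agfg2 (0.26). For Bax they were Zc3h18 (0.092), Mdm2 (0.10), Pes1 (0.11), Get4 (0.11) and Tceanc2 (0.11), and Mdm2 encodes the ligase that limits p53. For Mcl1 they were Ctdsp2 (0.12), Triobp (0.15), Cdc42bpg (0.15), Rpa2 (0.15) and Ctdsp1 (0.16). The median of all genes was 0.89 for Bbc3, 0.50 for Bax and 0.66 for Mcl1, so many genes lay nearer to Bax than to Bcl2l1. Within the family the nearest pair was Bax and Bad (0.24), Bcl2l1 and Bbc3 were 0.29 apart, and Bcl2l1 and Bid were farthest (1.23).

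After carboplatin 1 gene of the wider pathway lists was called, where 2.09% of all genes were. Of 15 transcription regulators, 1 rose and 0 fell: Foxo3, which activates BH3-only genes, went from 74.6 ± 4.46 (SD, n = 6) to 124 ± 24.5 CPM (n = 3; log2 0.73 ± 0.14, edgeR adjusted p = 0.0238). That call was lost without carboplatin 1 or 3 or PBS 4, 5 or 6, at an adjusted p of 0.0522 to 0.145. Limma voom called 4 transcription regulators higher and 3 lower, and DESeq2 1 higher. In the other 4 lists edgeR called 0 genes, with DESeq2 calling 1 of the other BCL2 relatives, 0 of the caspase pathway, 0 of the death receptor genes and 1 of the protein regulators. Limma voom called 2, 2, 2 and 3, where it called 29.6% of all genes and DESeq2 called 7.62%. At an unadjusted p under 0.05 edgeR had 2, 0, 0 and 1, where 16.5% of all genes passed.

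Bcl2l10 and Bcl2l14 were too low to test, which left 13 of 15 other BCL2 relatives. Among these, Bmf, a BH3-only gene, had a log2 fold change of 0.81 (adjusted p = 0.0862) and Bok, an effector-like gene, one of -0.58 (0.199). Dynll1, the dynein light chain that holds BIM, had -0.79 (0.0573), and Mapk8, the kinase JNK1, -0.41 (0.499). Apaf1, which builds the apoptosome, had -0.21 (0.497) and Cycs, cytochrome c, -1.09 (0.526). Cycs stood at 458 CPM in PBS 1, at 48.2 to 52.1 in the other PBS libraries and at 42.7 to 63.0 after carboplatin, and without PBS 1 its log2 fold change was 0.12. Casp8, the caspase of death receptors, had -0.42 (0.43) and its adaptor Fadd -0.38 (0.435).

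After selumetinib edgeR called 0 genes in each of the 5 lists. At an unadjusted p under 0.05 it had 2 of the other relatives, 1 of the caspase pathway, 4 of the death receptor genes, 5 transcription regulators and 1 protein regulator, where 24.0% of all genes passed. DESeq2 called 0, 0, 2, 3 and 0 of these lists and limma voom 9, 6, 7, 13 and 5, where they called 12.4% and 55.3% of all genes. Log2 fold changes were -0.81 for Jun (adjusted p = 0.0884), -0.62 for Rela (0.118), -0.84 for Casp8 (0.102), -0.64 for its inhibitor Cflar (0.114), 1.10 for Hrk (0.175) and 0.44 for Bok (0.204). They were -0.99 for Birc3 (0.179), -0.43 for Casp6 (0.219), -0.99 for Tpt1 (0.152) and 0.46 for Mapk8 (0.308). Hrk stood at 15.6 and 18.9 CPM in selumetinib 1 and 2, the libraries with raised neuron markers, and at 3.72 in selumetinib 3. Birc3 stood at 4.03, 2.27 and 9.71 CPM in selumetinib 1, 2 and 3. With PBS 1, selumetinib 1 and selumetinib 2 left out, 1 selumetinib library remained. Hrk, Birc3 and Mapk8 then changed sign, to -0.85, 0.0066 and -0.054. The other genes listed here kept their sign, which does not show that they kept their size. In selumetinib 3, Rela (56.02 CPM), Cflar (80.06), Casp8 (10.52), Casp6, Tpt1 (766.9) and Bok (10.91) lay within the PBS range. In selumetinib 1 and 2 each of these genes lay outside it. Jun, at 83.56 CPM in selumetinib 3, stayed below the lowest PBS library (85.87).

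Between the drugs, Foxo3 (log2 1.04, edgeR adjusted p = 0.00877), Rela (0.96, 0.0248), Jun (0.84, 0.0359) and Foxo1 (0.80, 0.0418) were higher after carboplatin, 4 of 15 transcription regulators. Cflar (0.86, 0.0342) was the 1 of 8 death receptor genes called, and Bmf (0.88, 0.0449) was higher and Bok (-1.02, 0.0233) lower among the relatives. Dynll1 was lower (-0.76, 0.0377). In this comparison edgeR called 14.0% of all genes tested. Of 16 caspase pathway genes 0 passed, and Casp2 (0.33, 0.158) and Apaf1 (-0.34, 0.175) were nearest. Of these 16, 1 had an unadjusted p under 0.05, against 31.5% of all genes. DESeq2 called 0, against 24.6% of all genes, and limma voom 10, against 58.6%. Each of the 8 calls was lost without selumetinib 1 or selumetinib 2, at adjusted p of 0.0541 to 0.181, and those other than Foxo3 also without carboplatin 1 or 3, at 0.0614 to 0.132. All but Foxo3 and Dynll1 were lost without carboplatin 2 as well, at 0.0742 to 0.115, and 5 without 1 or more of the PBS libraries, at 0.0501 to 0.0648. With each drug against its own PBS libraries all 8 were lost, at 0.11 to 0.234. Cdkn1a, a gene known to answer p53, was higher after carboplatin than PBS by log2 3.51 ± 0.49 (SE, edgeR adjusted p = 0.00536). Fkbp5, a gene known to answer glucocorticoids, was higher by 3.20 ± 0.37 (adjusted p = 0.00189). The part of either regulator in the members' changes was not tested.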

How the data were processed

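Polyadenylated RNA of optic nerve was read in 12 libraries, grouped by the treatment label. The authors deposited 1 table of raw counts per gene. The tools named, per the submitters' processing notes, are STAR, HTSeq, DESeq2, FastQC and Trimmomatic, and the build is mm10. Their versions, the strand setting and the annotation release are not given in the sources used here. GENCODE M21 held 34490 of the gene IDs and gave coordinates and exon lengths.

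Genes were kept with filterByExpr (minimum count 10, minimum total 15). Counts were scaled with TMM and tested by the robust quasi-likelihood F test of edgeR 4.0.16 (R 4.3.3) in 1 model of 3 groups, with Benjamini-Hochberg adjustment over all genes tested and a threshold of 0.05. The SE is the log2 fold change divided by the square root of F, and the 95% interval uses it with 9 degrees of freedom. Log2 CPM used a prior count of 2. The test was checked on simulated data. No library pair in a group was alike within counting noise.

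Members and lists were chosen with earlier results of these data known. All members are named, with pathway genes called in a comparison (up to 6 a list, or the 2 of smallest p where none passed), and the 5 nearest profiles (average log2 CPM of at least 1) of each member called. Alternatives were DESeq2 1.42.0, limma 3.58.1 voom with quality weights, RLE factors, no filter, only the groups compared, the replicate number as a block, other PBS controls, a Y-linked covariate, and libraries left out. Alternatives for pathway genes, and the balance without Bcl2l1 and Bbc3, were added after seeing the data.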

Additional observations from a re-analysis of the deposited data

Results flagged for a closer look

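PBS 1 lay far from the other PBS libraries in 3 of 12 member and balance measures looked at in the 6 PBS libraries. Chance sets 1 in 20 independent groups apart by the rule used. These measures share the same libraries, and the balance includes Bcl2 and Bak1, so the 3 cannot be counted as separate. It was low for Bcl2 (21.7 CPM), high for Bak1 (53.1 CPM) and low for the anti-apoptotic less pro-apoptotic level (2.03). The same library was low in oligodendrocyte markers and rich in muscle markers, whose part in these values was not tested.

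The effects of the drugs, each against PBS, differed in the edgeR test of carboplatin against selumetinib by log2 1.86 for Bcl2l1, 1.64 for Bbc3, 1.21 for Mcl1 and 0.68 for Bax. All 6 PBS libraries served as 1 control set there, and the labels do not say whether PBS 1 to 3 and PBS 4 to 6 are separate cohorts. With carboplatin against PBS 1 to 3 and selumetinib against PBS 4 to 6, Mcl1 differed by 0.64 (edgeR adjusted p = 0.28), Bax by 0.50 (0.235) and Bbc3 by 1.58 (0.111). Bcl2l1 kept its call, where 22 of all 18344 genes were called.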

How the results depend on the processing

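Against PBS, 2 members were called after carboplatin with DESeq2, RLE factors, no filter, only the groups compared and any library left out. The count was 5 with limma voom, 0 with PBS 1 to 3 as controls, 4 without PBS 1, selumetinib 1 and selumetinib 2, and 0 without carboplatin 1 and 3, where 1 carboplatin library is assumed to vary like the other groups. It was 3 with the Y-linked covariate or with PBS 4 to 6. After selumetinib it was 1 with DESeq2, 7 with limma voom, 3 with the Y-linked covariate, and 0 to 1 with a library left out. No selumetinib library had Y-linked counts. The covariate could therefore be estimated only from PBS 1 and carboplatin 1, which also had none, against the rest of their groups. Between the drugs the count was 10 with limma voom and 2 to 6 with a library left out. It was 1 with carboplatin against PBS 1 to 3 and selumetinib against PBS 4 to 6, a pairing the labels do not give. Without PBS 1, selumetinib 1 and selumetinib 2 the lone selumetinib library is assumed to vary like the other groups.

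The replicate block left 0 members called after carboplatin (Bcl2l1 log2 1.67, adjusted p = 0.142; Bbc3 1.42, 0.196), 0 after selumetinib and 1 between the drugs, and 5, 2 and 50 of all genes. The titles' numbers are shared, but same-numbered libraries deviated together with r of -0.13 to 0.38, so they were not taken as pairs. All genes called after carboplatin numbered 383, against 1469 with DESeq2, 5423 with limma voom, 3073 without PBS 1, selumetinib 1 and selumetinib 2, and 14 without carboplatin 1 and 3. Limma voom called 10148 genes after selumetinib and 10749 between the drugs. The Y-linked covariate gave 640 genes after carboplatin, 2605 after selumetinib and 4290 between the drugs, of 18344 tested. PBS 4 to 6 as controls gave 2202 of 17832 genes after carboplatin, and PBS 1 to 3 gave 7 of 18110. With a library left out, 73 to 1941 genes were called after carboplatin, 0 to 4089 after selumetinib and 134 to 5974 between the drugs. The causes were not tested.

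Some log2 fold changes that had not passed the test changed sign. After carboplatin, Bad was -0.091 with the replicate block, -0.11 with PBS 1 to 3 and -0.041 without carboplatin 1 and 3. Bcl2l11 was -0.12 with PBS 4 to 6, -0.019 without PBS 1, selumetinib 1 and selumetinib 2, -0.14 without carboplatin 1 and 3, and -0.032 to 0.13 with a library left out. Cycs was 0.13 with PBS 4 to 6, 0.11 without PBS 1, selumetinib 1 and selumetinib 2, and -1.25 to 0.12 with a library left out (0.12 without PBS 1). After selumetinib, Bcl2 was 0.10 with the replicate block, 0.021 with PBS 1 to 3, 0.69 with the Y-linked covariate (adjusted p = 0.0389), and -0.21 to 0.015 with a library left out. Bid was -0.084, -0.018 and -0.39 under the same 3 settings, and -0.10 to 0.51 with a library left out. Values with the Y-linked covariate rest on PBS 1 and carboplatin 1, the only libraries outside selumetinib without Y-linked counts. Without PBS 1, selumetinib 1 and selumetinib 2, Bid was -0.90, Bax 0.0020, Bbc3 0.032, Bcl2l11 0.072, Hrk -0.85, Birc3 0.0066 and Mapk8 -0.054. Between the drugs, Bcl2 was -0.0094 with the Y-linked covariate. Bak1 was -0.18, Bcl2l11 -0.091 and Bid 0.51 without PBS 1, selumetinib 1 and selumetinib 2. With carboplatin against PBS 1 to 3 and selumetinib against PBS 4 to 6, Bak1 was -0.38 and Bad -0.053. With 3 treated libraries a group, small changes were not detectable.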
